A study of Mus musculus with 12 samples.

Results

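The CA2 and CA3 fields of the hippocampus were followed through 9 marker genes, of 24209 genes and unnamed entries counted. Bok, Iyd and Cpne4 were taken as markers of CA3 pyramidal cells, and Rgs14, Pcp4, Amigo2, Necab2, Cacng5 and Map3k15 as markers of CA2 pyramidal cells. The genes were chosen by name, from knowledge of the fields, and not by their change after a sponge. Earlier results of these data were known when the choice was made. RNA came from bilateral hippocampi of 12 adult male C57BL/6 mice, injected with an AAV5 vector at 10 weeks of age and dissected 10 weeks later. Every mouse carried a vector that expressed GFP from the human synapsin promoter, which is active in neurons of all types. In the miR-9 experiment, 3 mice received GFP alone (GFP Ctrl) and 3 received GFP with binding sites for miR-9 (GFP-miR-9sp). The miR-34 experiment had its own 3 GFP Ctrl mice and 3 mice with sites for miR-34 (GFP-miR-34sp). Such a sponge is a transcript with repeated imperfect sites that holds the miRNA away from its targets. The study described GFP in most hippocampal neurons, foremost in the dentate gyrus, and the share of CA2 and CA3 neurons that carried a sponge was not measured here. Each library was made from 1 mouse and held from 17279620 to 24428477 counted reads in the miR-9 experiment, and from 11029604 to 16934133 in the miR-34 experiment.

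CA3 pyramidal cells receive the mossy fibres of dentate granule cells and excite CA1 through the Schaffer collaterals, and their recurrent connections are linked to pattern completion. CA2 is a narrow field between CA3 and CA1 that is known for its part in social memory and for resistance to long-term potentiation. In whole-hippocampus RNA, fewer cells of a field and less RNA per cell cannot be told apart. Several of these genes are also used elsewhere in the brain, for example Pcp4 in dentate granule cells and striatum.

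The sponges are directed at 2 seed families, and the mature miRNAs are printed from RefSeq (GRCm38.p6) because the letters matched in the marker transcripts derive from them. Capitals mark the seed, bases 2 to 8, which miR-34a and miR-34b share and miR-9 does not.
mmu-miR-9-5p: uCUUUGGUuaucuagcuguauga
mmu-miR-34a-5p: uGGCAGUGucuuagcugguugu
mmu-miR-34b-5p: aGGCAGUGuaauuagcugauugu

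The 3′ UTRs of the 9 genes were searched for matches to these seeds. The longest UTR of each gene (GENCODE M1, mm9) was read on the transcript strand for the heptamer complementary to the miR-9 seed, ACCAAAG, and for that of the miR-34 seed, CACTGCC. Only Amigo2 held the first, at bases 369 to 375 of a UTR of 906 bases. Only Cacng5 held the second, at bases 535 to 541 of 2747. Both windows are printed with the heptamer in capitals.
Amigo2, miR-9 heptamer: gacttactagaACCAAAGttgagctgagc
Cacng5, miR-34 heptamer: tctctgtgtagCACTGCCctccccccagg
The miR-9 heptamer was in 7.8% of the 2299 genes with a UTR within 1.2 times the length of that of Amigo2, and the miR-34 heptamer in 29.1% of the 1935 genes with a UTR about as long as that of Cacng5. Over all 19915 UTRs the shares were 11.4% and 14.0%. The longer forms ending in A, ACCAAAGA and CACTGCCA, which contain the heptamers, were found in none of the 9 UTRs. In Rgs14, whose difference between the sponges ranked first by p below, neither heptamer was present in the 552 bases searched. A match is a description of letters, and its absence from this window says nothing of imperfect or other sites.

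The 9 genes spanned a wide range of levels. Levels between genes were compared in RPKM, reads scaled to the length of the transcript and to the total of the library, averaged over 12 mice. Pcp4, a small protein that binds calmodulin, was highest at 162 ± 16.8 (SD, n = 12). Necab2, a neuronal calcium-binding protein with EF hands, followed at 66.2 ± 7.53, and Cpne4, a copine that binds phospholipids through C2 domains, at 56.0 ± 5.57. Rgs14, a regulator of G-protein and MAP kinase signalling that limits synaptic plasticity in CA2, had 46.2 ± 5.79, and Bok, a BCL2 family member, 29.7 ± 6.15. These 5 genes lay above 88.2% to 98.5% of all genes by mean level. Iyd, a flavoprotein that removes iodine from iodotyrosines, was at 4.10 ± 1.22 and Map3k15, a MAP kinase kinase kinase, at 0.741 ± 0.178. Each gene was above the next one in all 12 mice, except that Necab2 was above Cpne4 in 11 of 12.

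**Figure D1:**
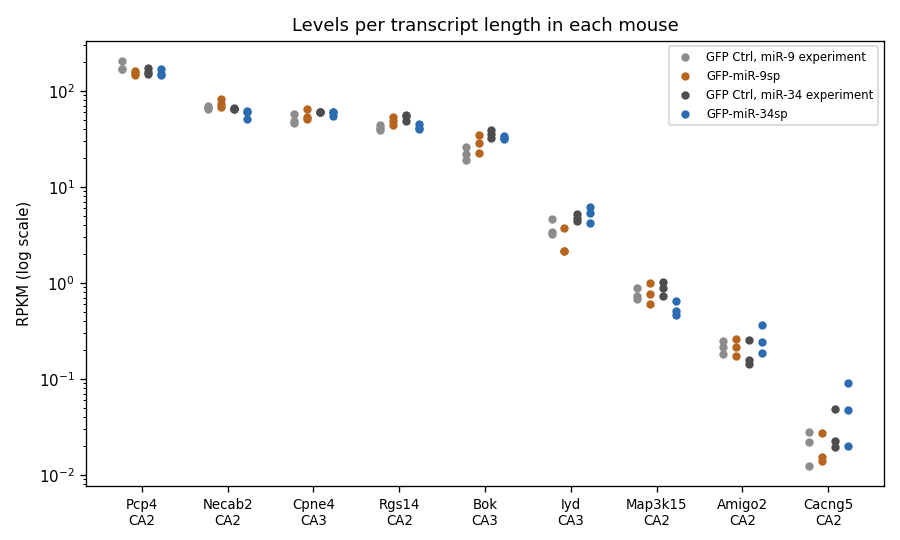
Levels of the 9 genes in RPKM (log axis), with 1 point per mouse and colours for the 4 groups. Pcp4 is highest in all 12 mice, Necab2 and Cpne4 lie close together, and Amigo2 and Cacng5 sit at the bottom, with reads on 1 of 3 and 1 of 2 entries.

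Amigo2 and Cacng5 were at the bottom, at 0.220 ± 0.0604 and 0.0305 ± 0.0223 RPKM, but their levels cannot be set beside the others. Amigo2, an adhesion protein widely used to outline CA2, is split over 3 RefSeq entries. Reads were listed on NM_178114 alone, from 5 to 20 per mouse, and the 2 other entries were at 0 in all 12 mice. Cacng5, an auxiliary subunit of AMPA receptors, has 2 entries, with 1 to 4 reads per mouse on NM_001199301 and 0 on the other. How reads shared between entries of a gene were counted is not given in the sources used here. The other 7 genes have 1 entry each. Counts this low leave Cacng5 near or under a floor of 3 reads, which was 0.123 to 0.272 RPM (reads scaled to the library total alone) depending on the mouse, and it did not pass the filter on low counts, a mean of over 10 scaled reads, in any comparison. In the alternative fit on every gene with a read, its adjusted p was 0.99 after miR-9sp, 0.91 after miR-34sp and 0.81 between the GFP Ctrl groups (edgeR).

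The genes lie on 9 chromosomes (mm9, GENCODE M1). The CA3 markers are at chr1:95582271-95592339 (Bok), chr10:6791664-6806301 (Iyd) and chr9:104449616-104936874 (Cpne4). Those of CA2 are at chr13:55471093-55486048 (Rgs14), chr16:96689213-96747400 (Pcp4), chr15:97074505-97077718 (Amigo2), chr8:121970619-121996540 (Necab2), chr11:107735919-107776369 (Cacng5) and chrX:156426365-156561283 (Map3k15). Exons of 3 of them overlap those of a neighbour. Map3k15 overlaps Pdha1 on the opposite strand, Amigo2 overlaps Pced1b (Fam113b in that annotation) on the opposite strand, and Pcp4 overlaps Igsf5 on the same strand. Whether the counting used strand is not stated, so reads of such pairs cannot be told apart.

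Values by mouse are given next in RPM, which compare 1 gene between mice. They are ordered as mice 16, 2 and 8 of the GFP Ctrl and 17, 23 and 9 of the GFP-miR-9sp group, then mice 10, 4 and 8 of the GFP Ctrl and 13, 18 and 3 of the GFP-miR-34sp group of the miR-34 experiment.

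**Figure D2:**
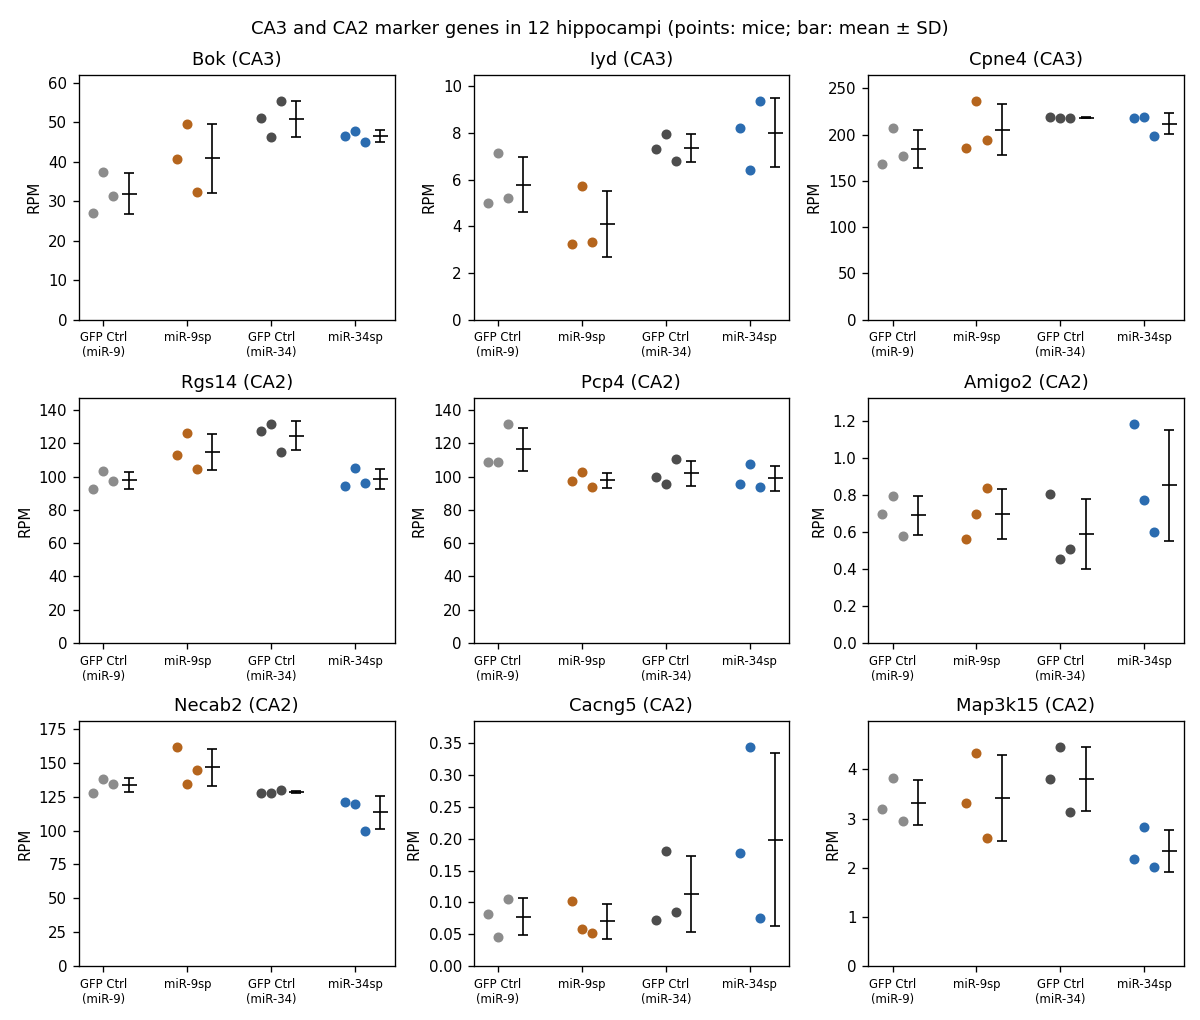
RPM (linear axes from 0) of each of the 9 genes in the 4 groups, with 1 point per mouse and the mean ± SD of 3 mice beside the points. Rgs14 lies above the GFP Ctrl mice in all 3 GFP-miR-9sp mice and below them in all 3 GFP-miR-34sp mice, and Necab2 and Map3k15 lie below them in the miR-34 experiment.

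The first comparison asked whether RNA of the CA3 and CA2 markers differed after miR-9 was bound by its sponge. None of the 8 genes tested passed the threshold, an adjusted p under 0.05 in edgeR's quasi-likelihood test over all 13045 genes tested. Over all genes the test called 0 genes (0% of those tested), DESeq2 called 2 (0.0153%), and 617 genes (4.73%) had an unadjusted p under 0.05. Of the 8 marker genes tested, 4 had one, with Bok, Rgs14 and Necab2 higher in their means after the sponge and Pcp4 lower. Of the 8 log2 fold changes, 6 were above 0 and 2 were below, with a median of 0.11 beside -0.00062 for all genes tested. The median ranged from 0.038 without GFP-miR-9sp mouse 23 to 0.19 without mouse 9 of the same group.

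Among the CA3 markers, Bok had 27.1, 37.4 and 31.3 RPM in GFP Ctrl and 40.8, 49.7 and 32.2 in GFP-miR-9sp mice. Its log2 fold change was 0.38 (SE 0.15, adjusted p = 0.97), and the lowest sponge mouse lay among the controls. Cpne4 had 168, 207 and 177 against 185, 236 and 195 RPM, a log2 fold change of 0.18 (SE 0.10, adjusted p = 0.97). Iyd had lower means after the sponge, with 4.99, 7.13 and 5.21 against 3.27, 5.73 and 3.34 RPM and a log2 fold change of -0.48 (SE 0.23, adjusted p = 0.97). The groups overlapped for all 3 CA3 genes. Without GFP-miR-9sp mouse 23 the log2 fold changes were 0.21 for Bok, 0.057 for Cpne4 and -0.79 for Iyd. Without GFP Ctrl mouse 2 they were 0.27 for Cpne4 and -0.30 for Iyd.

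Among the CA2 markers, Rgs14 had 92.8, 103 and 97.0 RPM in GFP Ctrl and 113, 126 and 105 in GFP-miR-9sp mice. All 3 sponge mice were above all 3 controls, by a log2 fold change of 0.26 (SE 0.07, 95% interval 0.10 to 0.41, adjusted p = 0.97). Pcp4 had 109, 109 and 131 RPM in GFP Ctrl and 97.3, 102 and 93.6 in GFP-miR-9sp mice. Here the sponge mice were all below the controls, by a log2 fold change of -0.23 (SE 0.07, adjusted p = 0.97). Groups that did not overlap in RPM were seen for these 2 of the 8 genes tested, and for 11.0% of all genes tested in this experiment (3.11% higher and 7.86% lower after the sponge). Without GFP-miR-9sp mouse 23 the value of Rgs14 was 0.17, and without GFP Ctrl mouse 8 that of Pcp4 was -0.13. The exact two-sided permutation test gave p = 0.1 for both, the smallest value that 3 mice against 3 allow.

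Necab2 had 128, 138 and 135 RPM in GFP Ctrl and 161, 134 and 145 in GFP-miR-9sp mice. The groups overlapped in RPM and were separate after TMM scaling, with a log2 fold change of 0.16 (SE 0.06, adjusted p = 0.97), or 0.095 without GFP-miR-9sp mouse 17. How many of all genes were separate after TMM scaling was not counted. Map3k15 had 3.19, 3.82 and 2.95 against 3.32, 4.34 and 2.61 RPM, and Amigo2 0.696, 0.792 and 0.579 against 0.561, 0.694 and 0.835. Their log2 fold changes, 0.06 (SE 0.20) and 0.03 (SE 0.28), were well within their errors. Cacng5 was between 0.0466 and 0.105 RPM in all 6 mice.

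The same question was asked for miR-34. None of the 7 genes tested passed the threshold in edgeR, which called 8 of 12492 genes, all lower after the sponge (0.0640% of those tested). DESeq2 called 36 (0.288%), Rgs14 among them, and 803 genes (6.43%) had an unadjusted p under 0.05 in edgeR, with 3.72% of all genes lower. The 3 marker genes of that set, Rgs14, Map3k15 and Necab2, were all lower. Of the 7 log2 fold changes, 6 were below 0, where 50.3% of all genes tested were. The median was -0.14 over the 7 genes beside -0.00067 over all genes. It was -0.26 for the 4 CA2 genes tested, which were all below 0, and -0.05 for the 3 CA3 genes. The median over the marker genes that passed the filter in each fit was -0.060 without GFP Ctrl mouse 8 and -0.089 without GFP-miR-34sp mouse 3. Leaving out a mouse could change which genes passed, so these medians need not cover the same 7 genes.

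Rgs14 had 127, 131 and 115 RPM in GFP Ctrl and 94.2, 105 and 96.2 in GFP-miR-34sp mice. All 3 sponge mice were below all 3 controls. The log2 fold change was -0.34 (SE 0.06, 95% interval -0.48 to -0.21, adjusted p = 0.0995). The adjusted p depended on the test. DESeq2 gave 0.000977, edgeR on every gene with a read gave 0.000178, and over all 13 alternatives the range was 0.000178 to 0.62, with the highest value without GFP-miR-34sp mouse 13. The fold change itself stayed between -0.40 and -0.30 when any 1 mouse was left out.

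Map3k15 had 3.81, 4.44 and 3.14 RPM in GFP Ctrl and 2.18, 2.83 and 2.02 in GFP-miR-34sp mice. The groups did not overlap, and the log2 fold change was -0.71 (SE 0.21, 95% interval -1.16 to -0.25, adjusted p = 0.53). Pdha1, which overlaps it, had means of 293 RPM in both groups of that experiment and a log2 fold change of -0.0060 (adjusted p = 0.99). Necab2 had 128, 128 and 129.6 RPM in GFP Ctrl and 121, 119.8 and 99.4 in GFP-miR-34sp mice. These groups were also separate, by a log2 fold change of -0.18 (SE 0.07, adjusted p = 0.70), which was -0.089 without GFP-miR-34sp mouse 3. Rgs14, Map3k15 and Necab2 were thus the 3 of 7 genes whose groups did not overlap, all lower after the sponge, where 11.6% of all genes tested had separate groups and 5.43% were separate and lower.

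The fourth CA2 gene tested, Pcp4, had 99.6, 95.7 and 110.5 RPM in GFP Ctrl and 95.7, 107 and 93.6 in GFP-miR-34sp mice, and the groups overlapped (log2 fold change -0.05, SE 0.07). The CA3 genes overlapped as well. Bok had 51.0, 46.3 and 55.4 against 46.6, 47.9 and 45.0 RPM (log2 fold change -0.14, SE 0.07, adjusted p = 0.81). Cpne4 was at 218, 218 and 217 RPM in GFP Ctrl and 218, 219 and 198 in GFP-miR-34sp mice (log2 fold change -0.05, SE 0.05, 95% interval -0.15 to 0.06). Iyd had 7.32, 7.98 and 6.79 against 8.21, 6.44 and 9.37 RPM (log2 fold change 0.13, SE 0.15). Amigo2, with 0.806, 0.453 and 0.510 against 1.18, 0.772 and 0.600 RPM, and Cacng5, with 0.0732 to 0.181 against 0.0750 to 0.343, were too low to be tested in this experiment.

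**Figure D3:**
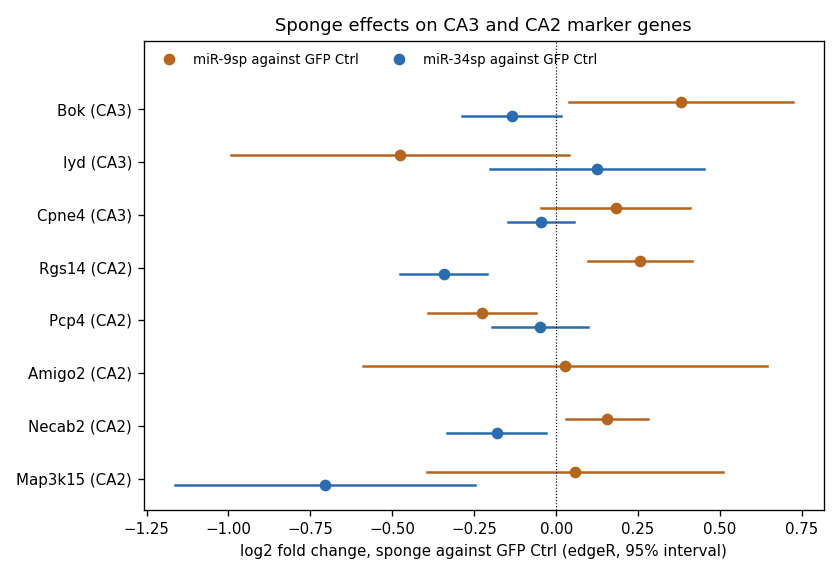
Log2 fold change of each tested gene, sponge against the GFP Ctrl mice of the same experiment, from edgeR with 95% intervals that are not adjusted for the number of genes. The intervals of Rgs14 and Necab2 lie above 0 after miR-9sp and below 0 after miR-34sp. After miR-9sp that of Bok lies above 0 and that of Pcp4 below 0, and after miR-34sp that of Map3k15 lies below 0. By point estimate alone, Bok, Cpne4 and Map3k15 are also above 0 after miR-9sp and below 0 after miR-34sp. No gene passed the adjusted threshold in either experiment.

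Whether the sponges differed in their effect was tested directly, as the miR-34sp effect minus the miR-9sp effect over all 12 mice. This contrast uses the 4 groups above and shares its mice with both comparisons. Rgs14 gave a difference of -0.60 on the log2 scale (SE 0.10, 95% interval -0.82 to -0.38). It ranked 1 of 12835 genes by p, and its adjusted p was 0.41 in edgeR and 0.00158 in DESeq2, with a range of 0.00158 to 0.91 over 17 alternatives. edgeR called 0 genes (0%), DESeq2 called 5 (0.0390%), and 783 genes (6.10%) had an unadjusted p under 0.05. In RPM, Rgs14 was also the only one of the 9 genes whose sponge mice lay wholly on opposite sides of their controls in the 2 experiments. That held for 92 of the 12835 genes in RPM (0.717%). After TMM scaling within each experiment, Necab2 also lay on opposite sides, higher after miR-9sp and lower after miR-34sp. The share of all genes on opposite sides was counted in RPM only, so there is no share to set beside this.

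Of the other CA2 genes, Necab2 gave -0.34 (SE 0.10, adjusted p = 0.70) and Map3k15 -0.77 (SE 0.30, adjusted p = 0.77). Pcp4 and Amigo2 gave differences of 0.18 (SE 0.11) and 0.50 (SE 0.47). Among CA3 genes, Bok gave -0.52 (SE 0.19, adjusted p = 0.76), Cpne4 -0.23 (SE 0.12) and Iyd 0.60 (SE 0.30). The 3 CA3 genes thus did not share a sign. Without GFP-miR-9sp mouse 23 their differences were -0.34, -0.10 and 0.92.

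The GFP Ctrl groups of the 2 experiments differed from each other, which bears on any level set across all 12 mice. Bok, Rgs14 and Cpne4 were higher in the GFP Ctrl mice of the miR-34 experiment, and these 3 of 8 genes tested passed the threshold, where 25.2% of all 12835 genes did. The log2 differences were 0.75 for Bok (SE 0.13, adjusted p = 0.000755), 0.42 for Rgs14 (SE 0.07, adjusted p = 0.000472) and 0.32 for Cpne4 (SE 0.09, adjusted p = 0.0158), by edgeR. For Bok and Rgs14 the call held whichever mouse was left out, and for Cpne4 it was lost without GFP Ctrl mouse 16 (adjusted p = 0.080) or mouse 8 (adjusted p = 0.058) of the miR-9 experiment. Iyd gave 0.42 (SE 0.21, adjusted p = 0.16), and Necab2, Pcp4, Amigo2 and Map3k15 gave differences from -0.13 to 0.26 that did not pass. Over all genes, 1934 were called higher and 1305 lower after TMM scaling, and scaling to total counts turned this split to 1383 and 2438. The 3 calls kept their direction under that scaling. Experiment, library set and mice cannot be told apart in this comparison. In the mean, Rgs14 was at 97.7 ± 5.27 and 125 ± 8.71 RPM (SD, n = 3) in the GFP Ctrl groups of the miR-9 and miR-34 experiments, and at 115 ± 10.9 and 98.6 ± 5.86 in the GFP-miR-9sp and GFP-miR-34sp mice.

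Further genes known from the 2 fields were read from lists of 12 genes each, also chosen with earlier results of these data known. Of the CA2 list, 8 genes were tested after miR-34sp, and all 8 log2 fold changes were below 0 (median -0.28), where 50.3% of all genes tested were. None passed the adjusted threshold in edgeR, 4 had an unadjusted p under 0.05 (3.72% of all genes had one and were lower), and for 4 the 3 sponge mice lay below all controls (5.43% of all genes). The lowest were Sostdc1, a secreted antagonist of BMP and Wnt signals (log2 fold change -1.78, SE 0.39, adjusted p = 0.25), and Avpr1b, the vasopressin receptor of CA2 (-0.79, SE 0.46, adjusted p = 0.85). Sostdc1 had 3.92 ± 1.32 RPM in GFP-miR-34sp mice and 13.9 ± 7.64 in their controls (SD, n = 3). The highest were Gpr12, an orphan receptor (-0.09, SE 0.21), and Cabp7, a calcium-binding protein (-0.15, SE 0.06, adjusted p = 0.72). After miR-9sp, the same list had 4 values above and 4 below 0 (median 0.01), from -0.14 for Gpr12 and -0.02 for Dusp5, a MAP kinase phosphatase, to 0.22 for Cabp7 and 0.42 for Avpr1b, with 0 genes at an unadjusted p under 0.05 in edgeR. Its summed level was 187 to 197 RPKM in GFP-miR-34sp mice, below the 212 to 237 of their controls, and overlapped in the miR-9 experiment (192 to 219 against 167 to 202).

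The CA3 list gave 2 values above and 6 below 0 after miR-34sp (median -0.06) and 5 above and 3 below after miR-9sp (median 0.04), with 0 genes called by edgeR in either. One of its 8 tested genes had an unadjusted p under 0.05 after miR-34sp and none after miR-9sp. That gene was Grik4, a kainate receptor subunit, with 93.2 ± 3.92 against 106 ± 7.16 RPM (log2 fold change -0.18, SE 0.06, adjusted p = 0.56). Cdh24, a cadherin, gave -0.11, and the highest were Galnt3, a glycosyltransferase (0.20, SE 0.14), and Socs2, a suppressor of cytokine signalling (0.16, SE 0.30). After miR-9sp the values ran from -0.08 for Plagl1, a zinc finger factor, and -0.04 for Prss23, a serine protease, to 0.09 for both Nectin3, an adhesion protein, and Grik4. Between the GFP Ctrl groups, Grik4 of this list and Avpr1b, Sostdc1, Acan and Cabp7 of the CA2 list were higher in the miR-34 experiment, by log2 differences of 0.27, 1.28, 1.32, 0.33 and 0.42 (adjusted p from 0.00518 to 0.0291, edgeR). These were 1 of 8 tested genes of the CA3 list and 4 of 8 of the CA2 list, where 25.2% of all 12835 genes passed. In that contrast the lowest of the CA2 list were Adcy5, an adenylyl cyclase (-0.12), and Ptpn5, a tyrosine phosphatase (-0.02). Of the CA3 list, Dkk3, a secreted glycoprotein, gave -0.07, Galnt3 0.03, Nectin3 0.28 and Socs2 0.36.

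Markers of other cells moved beside these genes. The 6 choroid plexus markers summed to 488 to 1829 RPKM in the GFP Ctrl mice of the miR-34 experiment and to 32.0 to 94.4 in GFP-miR-34sp mice, with no overlap for any of the 5 tested (3 called lower by edgeR, median log2 fold change -2.97) and no read for the other one. In the miR-9 experiment their sums were 75.6 to 556 in GFP Ctrl and 21.8 to 655 in sponge mice. Between the GFP Ctrl groups their median log2 difference was 1.67, higher in the miR-34 experiment. Sostdc1 of the CA2 list was also lower after miR-34sp and higher in those controls, with the largest change of that list in each. Of 8 striatum markers, 7 were tested and none was called, with medians of -0.25 after miR-34sp and -0.08 after miR-9sp. Their highest sum in the miR-34 experiment, 64.8, was in GFP Ctrl mouse 8, which had the lowest Rgs14 of its group. In the GFP-miR-34sp group, mouse 18 had both the highest striatum sum, 46.0 RPKM, and the highest Rgs14, 105 RPM. In the miR-9 experiment, GFP Ctrl mouse 16 had the highest striatum sum of its group, 58.9 RPKM, and the lowest Rgs14, 92.8 RPM. Mouse 17 had the highest sum of the GFP-miR-9sp group, 58.0 RPKM, and the middle Rgs14, 113 RPM. Dentate granule cell markers had a median of 0.24 after miR-34sp (5 of 6 tested) and 0.38 after miR-9sp (6 of 6), CA1 markers 0.05 and 0.07, and markers of thalamus and habenula -0.11 and -0.09, with no gene called. Of the dentate markers tested, 4 were above 0 after miR-34sp and 6 after miR-9sp. Unadjusted p was under 0.05 in edgeR, all higher, for 3 and 1 of them (6.43% and 4.73% of all genes, higher or lower). Between the GFP Ctrl groups, 6 of 6 dentate markers were higher in the miR-34 experiment (median 0.45, 2 called by edgeR). Of 6 CA1 markers, 5 were lower there and 1 was higher (median -0.33, 4 called lower). Over all genes, 25.2% passed in that contrast. The part of these cells in the values of Rgs14, Map3k15, Necab2 and the CA2 list was not tested.

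In 3 of the 4 groups, 1 mouse had the highest level of most of the genes. In the GFP Ctrl group of the miR-9 experiment, mouse 2 had the highest level of 7 of the 9 genes, all 3 CA3 genes among them. Mouse 23 had the highest level of 6 of 9 in the GFP-miR-9sp group, again with all 3 CA3 genes. These were also the mice with the highest summed dentate granule cell markers of their groups, at 117 and 126 RPKM, where the other 4 mice of the experiment had 72.5 to 89.2. In the GFP-miR-34sp group, mouse 3 had the lowest level of 7 of the 9 genes, 5 of the 6 CA2 genes among them, and mouse 18 the highest of 6. Here the summed dentate granule cell markers were highest in mouse 3, at 125 RPKM, with 115 in mouse 18. In the GFP Ctrl group of that experiment, the highest levels were spread over the mice, with 2, 4 and 3 of the 9 genes in mice 10, 4 and 8.

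For each gene other than Rgs14, the gene most like it was sought among 9239 genes over 12 mice, on log2(RPM + 1) after the mean of each group was subtracted. For Map3k15 it was Rgs14 itself (Pearson r = 0.94, Spearman rho = 0.91, and r = 0.90 without the 2 mice farthest from the median). For the CA3 genes these were Cap2 for Bok (r = 0.93), Rnf182 for Iyd (0.95) and Erc2 for Cpne4 (0.96), and the CA3 gene most like Bok was Cpne4 (0.76). Nav3 was most like Pcp4 (0.94), Ufl1 most like Necab2 (0.93), Zbtb8b most like Amigo2 (0.90) and Dnttip1 most like Cacng5 (0.90), the last 2 resting on few reads. Each value is the highest of 9239 and is a description of these mice, 6 from each experiment. The experiments differed in depth, with ranges of total reads that did not overlap.

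**Figure D4:**
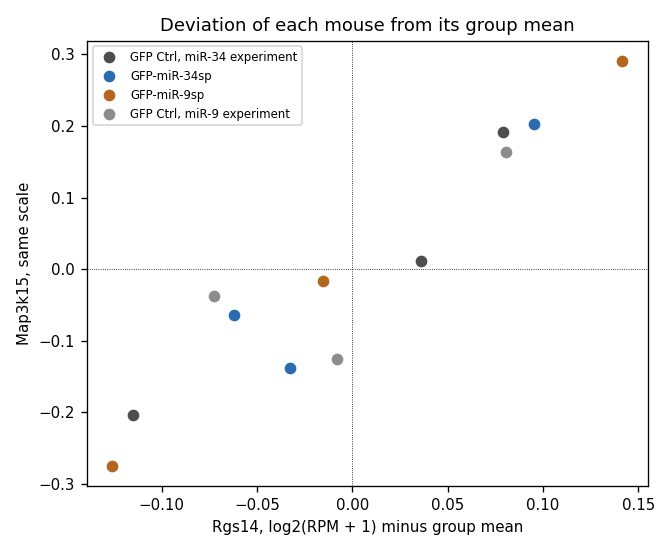
Deviation of each of the 12 mice from its group mean for Rgs14 (x axis) and Map3k15 (y axis), both in log2(RPM + 1). The 5 mice above their group mean of Rgs14 are also above it for Map3k15, and the 7 mice below it for Rgs14 are below it for Map3k15.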

How the data were processed

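The authors deposited raw read counts per RefSeq entry for each of 12 mice, with the length of each entry in bases. Poly-A enriched libraries (NuGEN Ovation) were sequenced as single-end reads. The submitters' processing notes name STAR and mm10, whereas the methods name mm9, and the counting tool is not given in the sources used here. Coordinates here are those of GENCODE M1 on mm9. Of 32850 entries, 98.7% were joined to gene symbols and 428 kept their own identifier. The files held no value of another sample.

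Counts were summed per symbol. Groups were compared within each experiment with edgeR 4.0.16 (quasi-likelihood test, TMM scaling) on genes with a mean of over 10 scaled reads, with Benjamini-Hochberg adjustment over all genes tested and a threshold of 0.05. DESeq2 1.42.0, other scalings and filters, a model of all 12 mice, single entries and leaving out each mouse were alternatives. Scripts were tested on simulated data. Each sample is a separate mouse, and p-values measure the spread between 3 mice a group. GFP Ctrl mice 16, 2 and 8 were placed in the miR-9 experiment because the labels of the other controls name miR-34. RPM are counts scaled to the total of each mouse, RPKM to entry length as well, and the floor of 3 reads covers counting error only.

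The 9 genes, the lists of further genes and the marker lists were chosen with earlier results of these data known. All 9 genes are named, and of the further CA3 and CA2 lists the genes past the threshold and the 2 highest and 2 lowest fold changes of each comparison. Markers of interneurons, oligodendrocytes, astrocytes, microglia and endothelial cells were read in the same way: edgeR called 0 of them in either sponge comparison. In that order, the median log2 fold changes of the miR-9sp comparison were 0.0045, -0.09, -0.0088, -0.05 and 0.05. Those of the miR-34sp comparison were 0.02, 0.07, -0.08, -0.00017 and -0.07. The gene most like Rgs14 over the 12 mice is not reported here.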

Additional observations from a re-analysis of the deposited data

Results flagged for a closer look

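Rgs14, the regulator of G-protein signalling that marks CA2, had effects of opposite sign after the sponges, and the test of their difference passed in DESeq2 but not in edgeR. Its log2 fold change against GFP Ctrl was 0.26 after miR-9sp, where all 3 mice lay above their controls, and -0.34 after miR-34sp, where all 3 lay below. The difference of -0.60 (SE 0.10) had an adjusted p of 0.41 in edgeR and 0.00158 in DESeq2. The GFP Ctrl groups themselves differed by 0.42 (adjusted p = 0.000472, edgeR), and experiment and library set cannot be told apart in that difference.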

How the results depend on the processing

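The count of genes called depended on the tool. After miR-9sp, edgeR called 0, DESeq2 2 and edgeR on every gene with a read 2, with 0 to 1 when a mouse was left out. After miR-34sp, edgeR called 8, DESeq2 36, and edgeR 81 on every gene with a read, 4 with RLE factors, 4 scaled to totals, 4 with single entries, 1 with over 10 reads in every mouse and 0 in a model of 12 mice, with 0 to 57 when a mouse was left out (57 without GFP Ctrl mouse 10, 1 without mouse 8 and 0 without any other). For the difference, edgeR called 0, DESeq2 5 and edgeR on every gene 4, with 0 to 1 without a mouse. The median of the CA2 and CA3 genes after miR-34sp, -0.14, was -0.13 scaled to totals, -0.049 on every gene, -0.092 in the model of 12 mice, and -0.16 to -0.060 without a mouse. These medians do not all cover the same genes. The main fit tested 7 of them, the model of 12 mice 8 and the fit on every gene all 9, and leaving out a mouse could change the set. Bok alone was at -0.14 in each of these 3 fits. After miR-9sp the median without a mouse was 0.038 to 0.19. Of values for single genes, 446 kept direction and call, 13 reversed, 2 lost a call (Cpne4 between controls) and 4 gained one (Rgs14 with DESeq2 and on every gene). The reversals were of small values. Necab2 between controls, 0.01, became -0.00054 with DESeq2, -0.00038 with RLE factors, -0.057 scaled to totals and -0.0047 on every gene, and -0.018 to 0.035 without a mouse. Leaving out a mouse gave Amigo2 -0.12 to 0.18 and Map3k15 -0.16 to 0.22 after miR-9sp, Cpne4 -0.072 to 0.0069 and Pcp4 -0.11 to 0.012 after miR-34sp, and Amigo2 -0.45 to 0.016 between controls. The cause was not tested. No paired analysis was made because each sample is a separate mouse and the labels give no pairs. Low counts limit Amigo2 and Cacng5, and why their counts are low was not tested. The 3 mice a group limit the exact test to p = 0.1.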
